A study of Homo sapiens with 6 samples.

Results

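The genes that ERK signaling switches on to restrain itself, or to carry its output, were followed by RNA-Seq in Caki2 cells that carried PBRM1 or an empty vector. The set was given as a list of gene symbols, proposed with earlier results of these data known, and holds 10 of the 25369 genes counted: the phosphatases DUSP4, DUSP5 and DUSP6, the inhibitors SPRY1, SPRY2, SPRY4, SPRED1 and SPRED2, and the transcription factors ETV4 and ETV5. Upon PBRM1 re-expression, DUSP4, DUSP5, DUSP6, SPRY1 and SPRY2 were upregulated by 1.16 to 2.48-fold, SPRED2 was downregulated by 0.20 on the log2 scale, and SPRY4, SPRED1, ETV4 and ETV5 did not pass the test. The call of SPRED2 was lost in 6 of 16 alternative analyses.

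Caki2 is a line of clear cell renal cell carcinoma (ccRCC) that lacks PBRM1 protein, the subunit that marks the PBAF form of the SWI/SNF chromatin remodeling complex. Caki2+Vector cells (n = 3, replicates A, B and C) carried an empty doxycycline-inducible lentiviral vector and had no PBRM1 protein, and Caki2+PBRM1 cells (n = 3, replicates A, B and C) carried full-length PBRM1 in that vector. All 6 samples, controls included, were grown in doxycycline at 2 µg/mL. The paper describes stable lines and calls the replicates biological, and the labels do not say whether they were separate cultures or infections. Other differences between the lines cannot be told apart from PBRM1 re-expression, and p-values measure the spread between these samples only. In bulk RNA, fewer cells that express a gene and less RNA per cell cannot be told apart.

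ERK is the last kinase of the RAS, RAF and MEK cascade, which receptor tyrosine kinases such as MET and EGFR switch on in renal epithelium and in many carcinomas. Active ERK induces its own brakes: dual-specificity phosphatases take the phosphates off ERK, Sprouty proteins act between receptors and RAF, and SPRED proteins recruit neurofibromin to turn RAS off. ETV4 and ETV5 are ETS transcription factors whose genes, like DUSP6 and SPRY4, are held down by the repressor capicua (CIC) until ERK relieves it, and transcripts of these genes are often read as a record of ERK output.

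The values are normalized counts, that is, each gene's reads scaled by the size factor of the library. Reads on genes ranged from 7312955 to 10835355 per sample. PBRM1 itself was at 195.0, 182.3 and 182.2 in Caki2+Vector and at 2431.7, 2520.7 and 2682.4 in Caki2+PBRM1, which is 13.6-fold higher, and the reads in Caki2+Vector do not tell of protein. The renal epithelial markers PAX8, KRT8, KRT18 and CDH6 were abundant and PAX2 was low, at 20.4 to 34.0 over the 6 samples. CDH6 was at 1113.9 to 1208.9 over the vector samples and 2505.3 to 2552.0 over the PBRM1 samples, while KRT8 (8275.9 to 8811.9 and 7228.0 to 7742.6) and KRT18 (3294.8 to 3652.3 and 2741.1 to 2854.9) were lower in every PBRM1 sample. Of 6 markers of blood, endothelium and fibroblasts, CD3E and CDH5 were at 0 in all 6 samples, COL1A1 ranged from 65.5 to 88.9, and PTPRC, from 3.8 to 5.7 over the vector samples and up to 1.1 over the PBRM1 samples, did not overlap between groups, and its part in the results was not tested. Vector replicate A differed from vector replicates B and C more than other replicates differed among themselves, with a chi-square per degree of freedom of 3.09 and 2.84 against 1.34 for B and C and 1.19 to 1.22 within Caki2+PBRM1. Without it, 5 members were called higher and 1 lower, as with all 6 samples. Over all 13303 genes tested, 2252 were then called higher and 1918 lower, against 2152 and 1734 with all 6 samples.

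For 6 of the 10 genes a promoter was at hand in RefSeq (GRCh38.p14), 10 promoters in all. Each was read from 250 bases before the start of transcription through the first 30 bases of the transcript, and searched on both strands for the capicua octamers TGAATGAA, TGAATGGA, TCAATGAA and TCAATGGA, the ETS core CCGGAA and the AP-1 site TGANTCA. DUSP4, DUSP5, ETV4 and ETV5 had no entry. The promoters of the 2 members with the largest increase, DUSP6 and SPRY1, and of the member that fell, SPRED2, are shown 5′ to 3′ along the gene, with matches in capitals:
DUSP6, chr12:89352472-89352751, minus strand: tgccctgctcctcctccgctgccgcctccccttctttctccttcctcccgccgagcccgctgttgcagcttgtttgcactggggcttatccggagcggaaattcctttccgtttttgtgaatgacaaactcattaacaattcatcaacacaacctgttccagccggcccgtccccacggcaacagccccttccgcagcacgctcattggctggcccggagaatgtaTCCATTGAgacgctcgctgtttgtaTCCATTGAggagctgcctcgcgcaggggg
SPRY1, the second of 2 promoters, chr4:123398136-123398415, plus strand: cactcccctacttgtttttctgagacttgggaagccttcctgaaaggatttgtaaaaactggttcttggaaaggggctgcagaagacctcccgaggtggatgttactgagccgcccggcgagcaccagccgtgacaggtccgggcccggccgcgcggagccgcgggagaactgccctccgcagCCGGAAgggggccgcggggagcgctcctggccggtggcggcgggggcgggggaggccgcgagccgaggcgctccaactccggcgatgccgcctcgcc
SPRED2, the second of 2 promoters, chr2:65366749-65367028, minus strand: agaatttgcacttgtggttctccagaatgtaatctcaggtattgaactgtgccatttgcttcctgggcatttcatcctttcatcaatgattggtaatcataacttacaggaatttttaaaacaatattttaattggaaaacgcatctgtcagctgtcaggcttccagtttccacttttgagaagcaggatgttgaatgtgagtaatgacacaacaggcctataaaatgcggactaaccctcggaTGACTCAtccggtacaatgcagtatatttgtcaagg

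The DUSP6 promoter held the octamer TCAATGGA 2 times, read on the other strand as TCCATTGA. The first bases lay 24 bases before the start and at base 2 of the transcript. Over 35116 promoters of this length, 0.484% held that octamer and 3.54% held any of the 4 octamers. The second promoter of SPRY1 held the ETS core 67 bases before the start, and the first promoter of SPRY2 held it 142 bases before. This word was found in 16.6% of promoters. The second promoter of SPRED2 held the AP-1 word 6 bases before its start, found in 7.35% of promoters. These shares are per promoter, while SPRY1 and SPRED2 had 2 promoters each and SPRY2 had 3. SPRY4 and SPRED1, with 1 promoter each, and the other promoters of SPRY1, SPRY2 and SPRED2 held none of these words. A match describes letters only, and binding was not measured.

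Of 13303 genes that reached a normalized count of 10 in 3 or more samples, limma called 16.2% higher and 13.0% lower with PBRM1, with 0.05 as the threshold of the adjusted p. All 10 ERK feedback genes passed the filter on low values, and 5 were called higher and 1 lower. In 6 of them every Caki2+PBRM1 sample lay above every Caki2+Vector sample, as it did for 22.1% of all genes tested, and in 1 every sample lay below, as for 19.6%. The median log2 fold change of the 10 was 0.28, with a range from -0.20 to 1.29, and that of all tested genes was -0.0036. Fold changes on the log2 scale are differences of log2(normalized count + 1), which understates the change of genes with few reads.

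**Figure D1:**
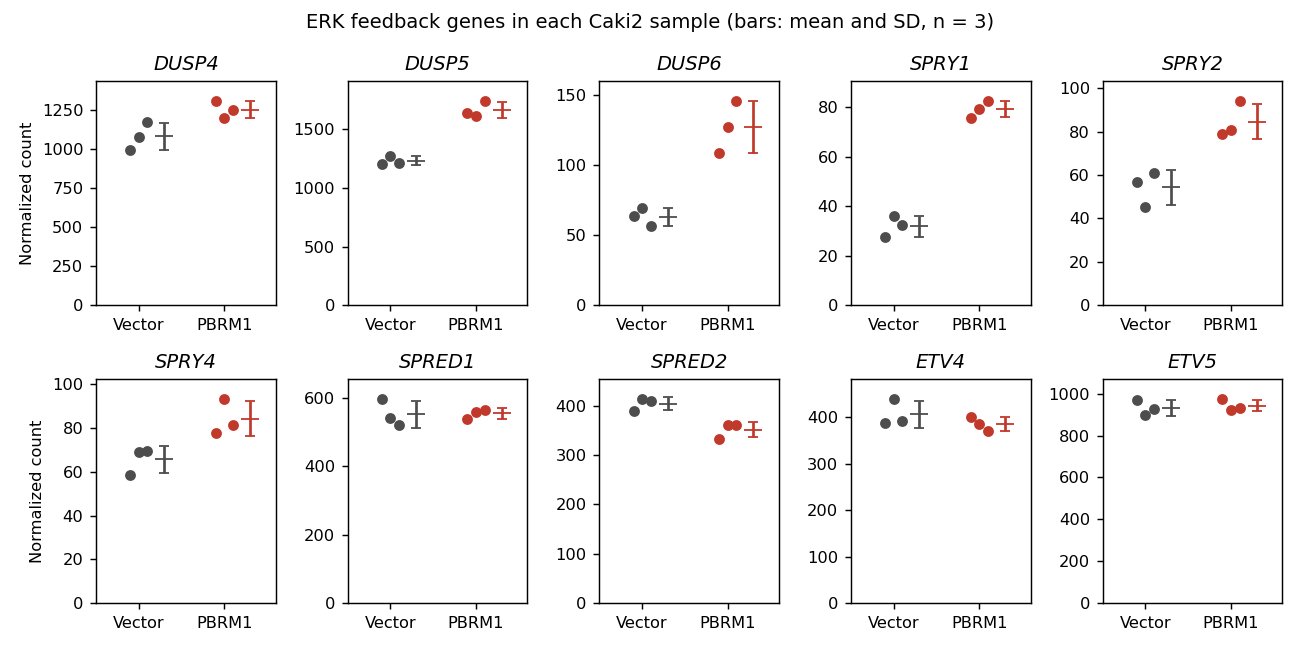
Normalized count (vertical axis, from 0) of each of the 10 genes in the 3 Caki2+Vector samples (grey) and the 3 Caki2+PBRM1 samples (red), with the mean and SD of each group beside the points. DUSP5, DUSP6, SPRY1 and SPRY2 show wide gaps between groups, DUSP4 and SPRY4 narrow ones, SPRED2 lies lower with PBRM1, and SPRED1, ETV4 and ETV5 overlap.

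All 3 phosphatase genes were upregulated upon PBRM1 re-expression. DUSP6 (chromosome 12, 89741012 to 89746278 of GRCh37, minus strand), a cytoplasmic phosphatase that acts chiefly on ERK, was at 63.4, 69.0 and 56.3 in Caki2+Vector and at 108.3, 127.1 and 145.2 in Caki2+PBRM1. The lowest PBRM1 sample stood well above the highest vector sample. The mean rose from 62.9 ± 6.3 to 126.9 ± 18.4 (SD, n = 3), a log2 fold change of 1.00 (SE 0.134, 95% interval 0.72 to 1.27, adjusted p = 1e-06 by limma). It rests on 47 to 73 reads per vector sample and 100 to 173 per PBRM1 sample. An lncRNA on the other strand overlaps an exon of DUSP6, and since the strand setting of the counting is not given in the sources used here, reads of the lncRNA could be counted with it.

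DUSP5 (chromosome 10, 112257665 to 112271291, plus strand), the nuclear phosphatase that is specific for ERK, was the most abundant of the 3. It was at 1202.3, 1274.5 and 1217.7 in Caki2+Vector and at 1642.1, 1610.6 and 1739.0 in Caki2+PBRM1. The groups were far apart compared with their spread, with means of 1231.5 ± 38.0 and 1663.9 ± 66.9, a 1.35-fold difference (log2 0.43, SE 0.046, adjusted p = 1.2e-08 by limma). DUSP4 (chromosome 8, 29190581 to 29208201, minus strand), a nuclear phosphatase that also acts on JNK and p38, was at 997.8, 1079.9 and 1172.2 in Caki2+Vector and at 1307.4, 1198.1 and 1253.1 in Caki2+PBRM1. The highest vector sample and the lowest PBRM1 sample nearly met. The mean of DUSP4 rose from 1083.3 ± 87.2 to 1252.9 ± 54.6, a difference of 1.16-fold with a 95% interval of 1.07 to 1.25 (adjusted p = 0.00349 by limma). Without PBRM1 replicate A the adjusted p of DUSP4 was 0.0451 by limma, near the threshold. Without vector replicate A its log2 fold change was 0.15, against 0.21 with all samples.

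The Sprouty genes were among the least abundant members, and all 3 had higher levels in every PBRM1 sample than in any vector sample. SPRY1 (chromosome 4, 124317950 to 124324915, plus strand) was at 27.5, 35.9 and 32.4 in Caki2+Vector and at 75.8, 79.1 and 82.3 in Caki2+PBRM1. This was the largest change of the 10 genes, from 31.9 ± 4.2 to 79.1 ± 3.2, or 2.48-fold (log2 1.29, SE 0.164, 95% interval 0.96 to 1.63, adjusted p = 3.73e-07 by limma). It rests on 27 to 38 reads per vector sample and 70 to 98 per PBRM1 sample.

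SPRY2 (chromosome 13, 80910111 to 80915261, minus strand), the family member best known for binding GRB2 and CBL, was at 56.8, 45.3 and 61.1 in Caki2+Vector and at 79.1, 80.9 and 94.0 in Caki2+PBRM1. The groups did not overlap, and the mean rose 1.56-fold (log2 0.63, SE 0.149, 95% interval 0.33 to 0.94, adjusted p = 0.00157 by limma). SPRY4 (chromosome 5, 141689992 to 141706020, minus strand) was at 58.7, 69.0 and 69.5 in Caki2+Vector and at 78.0, 93.3 and 81.4 in Caki2+PBRM1. Although the groups did not overlap, its difference of 1.28-fold (95% interval 1.05 to 1.56) missed the threshold, with a log2 value of 0.35 (SE 0.139) and an adjusted p of 0.0547 by limma. With the recovered reads the adjusted p was 0.0453 by edgeR and 0.0498 by limma voom, and over all alternatives it ranged from 0.0453 to 0.229.

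Neither SPRED gene was called higher. SPRED1 (chromosome 15, 38545037 to 38649450, plus strand), the form mutated in Legius syndrome, was at 597.4, 541.4 and 521.4 in Caki2+Vector and at 538.3, 560.9 and 566.5 in Caki2+PBRM1. All PBRM1 samples lay inside the range of the vector samples. Its means were 553.4 ± 39.4 and 555.2 ± 14.9, and the 95% interval of the fold ran from 0.921 to 1.1 (adjusted p = 0.951 by limma).

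SPRED2 (chromosome 2, 65537985 to 65659771, minus strand), which also binds neurofibromin, was at 390.0, 413.8 and 409.9 in Caki2+Vector and at 333.6, 361.8 and 360.9 in Caki2+PBRM1. Each PBRM1 sample was below each vector sample. The mean decreased by 13.0%, a log2 fold change of -0.20 (SE 0.068, 95% interval -0.34 to -0.06, adjusted p = 0.0266 by limma). This call was lost with DESeq2 (adjusted p = 0.116) and without vector replicate B (0.0779) or C (0.0669) or PBRM1 replicate A (0.136) or C (0.0515), by limma, over a range of 0.00835 to 0.136 in all alternatives, while the log2 fold change stayed between -0.23 and -0.16.

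Neither ETS factor passed the test. ETV5 (chromosome 3, 185764103 to 185828107, minus strand) was at 971.3, 896.6 and 925.3 in Caki2+Vector and at 974.9, 922.6 and 934.1 in Caki2+PBRM1. The samples of the groups were interleaved, with means of 931.1 ± 37.7 and 943.9 ± 27.4 and a 95% interval of the fold from 0.944 to 1.09 (adjusted p = 0.807 by limma). ETV4 (chromosome 17, 41605212 to 41656988, minus strand) was at 388.1, 439.3 and 391.9 in Caki2+Vector and at 400.8, 384.9 and 370.1 in Caki2+PBRM1. PBRM1 replicate A lay above vector replicates A and C, and the 95% interval of the fold ran from 0.860 to 1.05 (adjusted p = 0.45 by limma). Exons of ETV4 overlap DHX8 on the other strand, and those of ETV5 overlap DGKG on the same strand. DHX8 ranged from 619.7 to 631.4 over the vector samples and from 623.6 to 680.8 over the PBRM1 samples, and DGKG from 497.4 to 578.4 and from 437.6 to 480.1. The part of these neighbors in the counts of ETV4 and ETV5 was not tested.

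**Figure D2:**
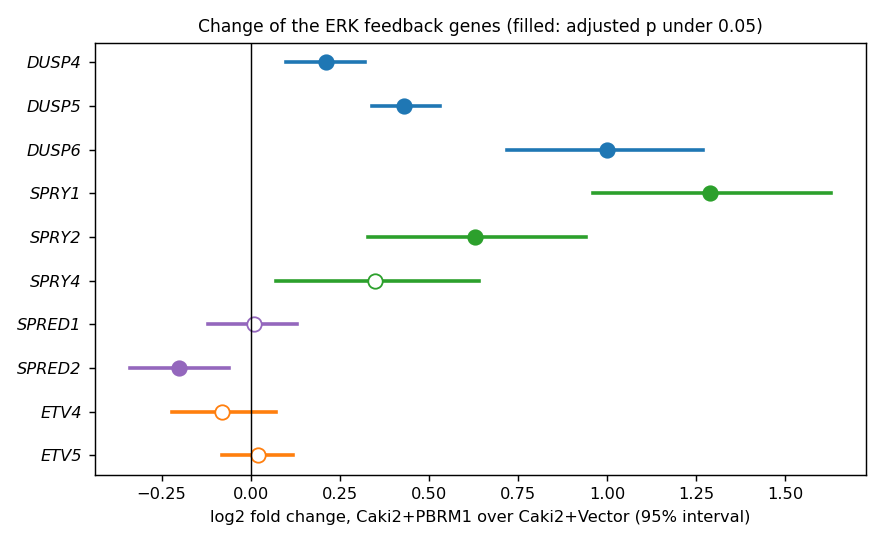
Log2 fold change, Caki2+PBRM1 minus Caki2+Vector (horizontal axis), of the 10 genes by limma, with 95% intervals as bars and filled points past an adjusted p of 0.05. The intervals of SPRY1 and DUSP6 start at 0.96 and 0.72, those of SPRED1, ETV4 and ETV5 cross 0, and that of SPRED2 lies below 0.

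The plot of fold changes with their intervals sets the 10 genes side by side. The intervals of SPRY1, 0.96 to 1.63, and DUSP6, 0.72 to 1.27, lay above the point estimates of all 8 other genes, and the interval of DUSP5, 0.34 to 0.53, was the narrowest. The differences between these fold changes were not tested, apart from those of the paralog pairs that follow.

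Levels can be compared between genes only per length, so the normalized count was divided by the kilobases of the canonical transcript, an approximation where other transcripts are made. In Caki2+Vector, DUSP5 had the highest level at 497 per kb, followed by ETV5 at 228, DUSP4 at 195 and ETV4 at 174. SPRED2 followed at 89.5 and SPRED1 at 76.1. SPRY2 at 23.8, DUSP6 at 17.3, SPRY4 at 13.4 and SPRY1 at 12.3 were the lowest. Samples of neighbors in this order overlapped for DUSP4 (180 to 211) and ETV4 (166 to 188) and for SPRY4 (12.0 to 14.2) and SPRY1 (10.5 to 13.8), and for no other neighbors.

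Upon PBRM1 re-expression the order kept DUSP5 first at 672 per kb, with ETV5 at 231 and DUSP4 at 226 next and overlapping in their samples. ETV4 was at 165, SPRED2 at 77.9 and SPRED1 at 76.4. The low group was SPRY2 at 37.0, DUSP6 at 35.0, SPRY1 at 30.4 and SPRY4 at 17.2. SPRY1 thus passed SPRY4, with samples from 29.1 to 31.6 per kb against 15.9 to 19.0. Samples of neighbors also overlapped for SPRED2 and SPRED1, for SPRY2 and DUSP6, and for DUSP6 and SPRY1. The members with the largest fold changes, SPRY1, DUSP6 and SPRY2, were among the 4 of lowest level.

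**Figure D3:**
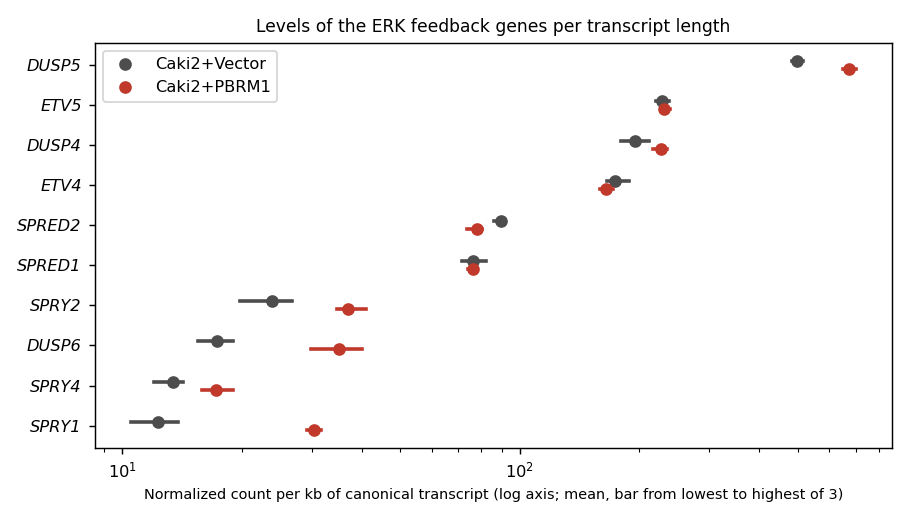
Normalized count per kilobase of canonical transcript (log axis) of the 10 genes in Caki2+Vector (grey) and Caki2+PBRM1 (red), with points at the mean and bars from the lowest to the highest of 3 samples. DUSP5 stands highest in both groups, and SPRY1, SPRY2, SPRY4 and DUSP6 form the low end, where SPRY1 moves above SPRY4 with PBRM1.

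Ratios of paralogs within a sample do not depend on the size factor, and 4 pairs were compared with an exact two-sided permutation test, for which 3 samples against 3 can give no p below 0.1. The log2 ratio of DUSP4 to DUSP6 was 3.95, 3.95 and 4.35 in Caki2+Vector and 3.58, 3.23 and 3.10 in Caki2+PBRM1. The vector samples were all higher, and the mean fell by 0.78 on the log2 scale (exact permutation p = 0.1, adjusted over 4 pairs 0.2). The log2 ratio of SPRED1 to SPRED2 was 0.61, 0.39 and 0.35 in Caki2+Vector and 0.69, 0.63 and 0.65 in Caki2+PBRM1. All PBRM1 samples were above all vector samples, by 0.21 in the mean (exact permutation p = 0.1, adjusted 0.2). The log2 ratios of SPRY2 to SPRY4 and of ETV4 to ETV5 overlapped between groups, with differences of 0.28 (exact permutation p = 0.3) and -0.10 (exact permutation p = 0.4), both at an adjusted value of 0.4. Without vector replicate B these differences were 0.12 and -0.01, and that of ETV4 to ETV5 was -0.16 without vector replicate A. That of SPRY2 to SPRY4 was 0.18 without PBRM1 replicate C.

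The rest of the pathway was described with 8 lists of 71 other genes, also chosen with earlier results of these data known. In all, 69 were tested. Of these, limma called 18 higher, or 26.1% against 16.2% of all genes tested, and 9 lower, or 13.0%, the same share as of all genes, with a median log2 fold change of 0.04. The lower count was 14 without vector replicate A and 5 without PBRM1 replicate C. SPRY3 and KDR, the receptor of VEGF, were under the filter. The relatives SPRED3 and ETV1 were tested and neither passed by limma, edgeR or DESeq2, and 0 of 2 had an unadjusted p under 0.05.

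Of 7 other MAP kinase phosphatases, 3 rose and 1 fell, where 16.2% of all genes tested were called higher and 13.0% lower. DUSP7, a cytoplasmic phosphatase related to DUSP6, rose 1.80-fold, from 50.3 to 63.3 over the vector samples to 92.4 to 107.2 over the PBRM1 samples (log2 0.84, adjusted p = 2.42e-05 by limma). DUSP1, an immediate early gene, rose 1.26-fold and DUSP10, which prefers JNK and p38, rose 1.23-fold, a call that was lost for DUSP10 with DESeq2 (adjusted p = 0.0568) and without PBRM1 replicate A (0.0705, limma). DUSP16, which also prefers JNK, was downregulated, with means of 397.4 ± 24.1 and 314.6 ± 10.5 (SD, n = 3). DUSP2, DUSP8 and DUSP9 did not pass, with log2 fold changes from -0.30 to -0.18, so that the median of the list was -0.18.

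In the cascade itself, MAP2K1, which encodes MEK1, rose 1.21-fold, from 524.3 ± 24.8 to 632.5 ± 15.5 (SD, n = 3, adjusted p = 6.95e-04 by limma). Of 7 adaptors and exchange factors, 1 was called higher and 1 lower, where 16.2% and 13.0% of all genes tested were. GAB1, a docking protein of MET and EGFR, rose 2.09-fold, from 67.2 to 85.1 over the vector samples to 145.2 to 160.0 over the PBRM1 samples (adjusted p = 5.25e-08 by limma). The adaptor SHC1 fell by 0.14 on the log2 scale (adjusted p = 0.0189 by limma). The call of SHC1 was lost with DESeq2 (0.058), without vector replicate B (0.0725) and without PBRM1 replicate A (0.0779) or C (0.131), by limma, and its adjusted p ranged from 0.00105 to 0.131 over all alternatives.

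Among 12 growth factor receptors, 2 were called higher and 4 lower of the 11 tested, against 16.2% and 13.0% of all genes. With DESeq2, 2 receptors were called higher and 3 lower, against 1496 and 1057 of all 13303 genes. ERBB3 ranged from 44.5 to 51.5 over the vector samples and from 20.6 to 25.2 over the PBRM1 samples, with a log2 fold change of -1.01 (adjusted p = 1.91e-04 by limma). FGFR2 and FGFR1 were also downregulated, with log2 fold changes of -0.50 and -0.33, and IGF1R rose by 0.17. Of 8 other negative regulators, LRIG1, which promotes loss of receptors from the membrane, and PEBP1, an inhibitor of the cascade, rose 1.27 and 1.17-fold, and ERRFI1, an inhibitor of EGFR, fell by 0.15 on the log2 scale. With DESeq2 the calls of LRIG1 (adjusted p = 0.0536) and ERRFI1 (0.0509) were lost, and that of ERRFI1 also without PBRM1 replicate B (0.0826) or C (0.0507), by limma.

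Of 11 ERK effectors and transcription factors, 4 rose and 1 fell. Over all genes tested, 16.2% were called higher and 13.0% lower by limma. With DESeq2, 3 of the 11 were called higher and 0 lower, against 1496 and 1057 of all 13303 genes. CIC, the capicua repressor, rose 1.34-fold, from 458.2 to 590.9 over the vector samples to 674.8 to 720.8 over the PBRM1 samples (log2 0.43, adjusted p = 4.73e-05 by limma). ELK1, ETS2 and ETS1 rose by 0.26, 0.22 and 0.20 on the log2 scale, and the call of ETS1 was lost with DESeq2 (adjusted p = 0.115) and without vector replicate C (0.0825) or PBRM1 replicate A (0.0917) or C (0.0876), by limma. Of 12 other output genes of ERK, 4 rose and 1 fell, and their median log2 fold change was 0.19. PHLDA1 rose 1.75-fold, from 1067.1 ± 122.4 to 1868.9 ± 93.6 (adjusted p = 5.19e-08 by limma), and EPHA4 and IER3 rose by 0.31 and 0.24 on the log2 scale, where EPHA4 missed the threshold with DESeq2 (adjusted p = 0.0509). MYC was downregulated, from 1165.2 ± 56.8 to 944.6 ± 24.5 (log2 -0.30, adjusted p = 2.3e-05 by limma).

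**Figure D4:**
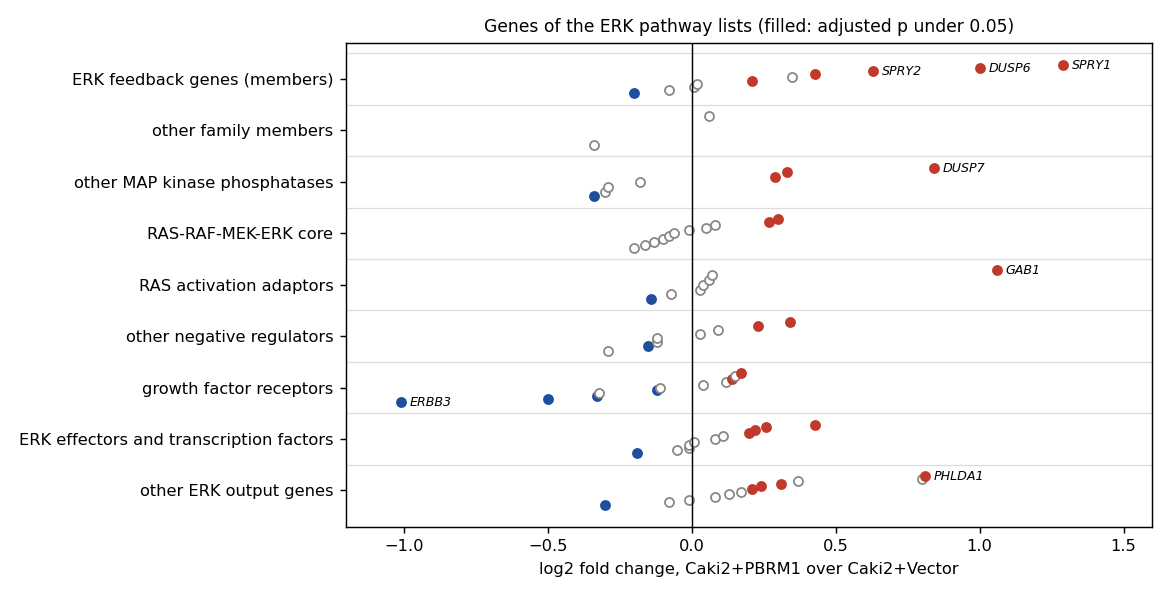
Log2 fold change, Caki2+PBRM1 minus Caki2+Vector, of each tested gene of the members and of the 8 other pathway lists, with filled points for genes past an adjusted p of 0.05 by limma (red higher, blue lower). The member SPRY1 lies farthest to the right at 1.29, followed by GAB1 of the adaptors at 1.06. ERBB3 lies farthest to the left at -1.01.

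The plot of pathway lists shows the spread within each list. The medians of the other 8 lists ran from -0.18 for the phosphatases to 0.19 for the other output genes, against -0.0036 for all tested genes. The heat map of alternatives shows the members under each other processing. DUSP4, DUSP5, DUSP6, SPRY1 and SPRY2 kept their direction and their call in 16 of 16 alternatives.

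**Figure D5:**
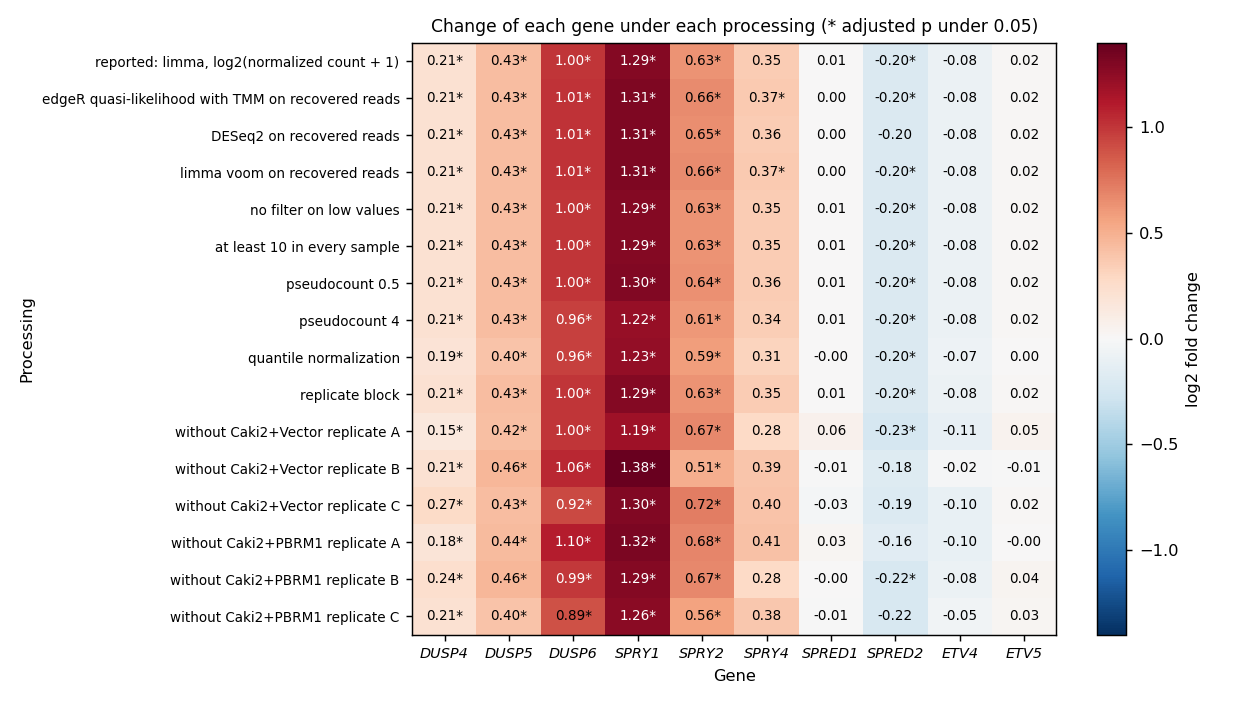
Log2 fold change, Caki2+PBRM1 minus Caki2+Vector, of the 10 genes (columns) under the reported test and the alternatives other than the stricter threshold (rows), with color and number for the value and an asterisk for an adjusted p under 0.05. DUSP4, DUSP5, DUSP6, SPRY1 and SPRY2 carry an asterisk in every row, and SPRED2 lacks it with DESeq2 and without any of 4 samples.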

How the data were processed

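RNA-Seq was analysed for 3 Caki2+Vector and 3 Caki2+PBRM1 samples, grouped by their labels. According to the methods, the authors trimmed and filtered the reads, used STAR for alignment to hg19, and obtained counts for 25369 genes by htseq-count. The values the authors deposited are a normalized signal: reads divided by a size factor per sample (0.834 to 1.19), without division by length. The strand setting is not given in the sources used here. Within 0.01 of a read, 100.0% of values came out whole. The normalized counts of genes at 10 or more in at least 3 samples were tested as log2(normalized count + 1) with limma 3.58.1 (trend and robust) in R 4.3.3, with Benjamini-Hochberg adjustment over 13303 genes and a threshold of 0.05. Whole reads, recovered from the files, were tested with edgeR 4.0.16 (quasi-likelihood, TMM), which called 4030 genes, with DESeq2 1.42.0 and with limma voom, and the limma test called 3886. At 7312955 to 10835355 reads per sample, log2 fold changes had a median SE of 0.083. The scripts were tested on simulated data.

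The members and pathway lists were chosen with earlier results of these data known. Values are given for all members, and, from each other list, for up to 4 genes past the threshold with the largest absolute log2 fold change. Other list genes, such as DUSP2, were named after their values were seen, as examples of what did not pass, and some genes of the lists are not reported here. Other alternatives were no filter, at least 10 in every sample, pseudocounts of 0.5 and 4, quantile normalization, the replicate letter as a block, leaving out each sample, and an adjusted p under 0.01. Coordinates and lengths are those of GENCODE on GRCh37, and promoters those of RefSeq on GRCh38.p14.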

Additional observations from a re-analysis of the deposited data

How the results depend on the processing

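The 5 upregulated members kept their call under every alternative run. The number of members called lower was 1 in the reported test and 0 with DESeq2, where 1 had an unadjusted p under 0.05, and 0 at an adjusted p under 0.01. It was 1 with edgeR and ranged from 0 to 1 when each sample was left out. Genes of the other pathway lists called lower numbered 9 in the reported test, 5 with DESeq2, 5 at an adjusted p under 0.01, and 5 to 14 when each sample was left out. All genes called numbered 3886 in the reported test, 2553 with DESeq2 and 2521 at an adjusted p under 0.01. The log2 fold change of SPRED1 changed sign under quantile normalization (-0.003) and ranged from -0.035 to 0.063 when each sample was left out, and that of ETV5 ranged from -0.007 to 0.051. SPRY4 passed the threshold only with edgeR and limma voom among these alternatives.

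Whether samples of the same letter were handled together is not given by the labels. Between samples of the same letter, the correlation of deviations from the group means was 0.006 for A, -0.008 for B and 0.014 for C, which cannot settle this. With the replicate block, 4107 genes were called, with 5 members higher and 1 lower, and the block changed no member's call. At this depth SPRY1, SPRY2, SPRY4 and DUSP6 rest on the fewest reads, and their SE, from 0.134 to 0.164, is larger than the 0.083 of the median gene. The differences of SPRED1, ETV4 and ETV5 lie within intervals that include 0. The cause of the changes under these alternatives was not tested.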
